A study of Homo sapiens with 2 samples.

Results

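Translation factors are the proteins that bring a ribosome to an mRNA, move it along the coding sequence and release the finished protein. Their genes were taken here by symbol, as the protein-coding genes of GENCODE release 44 that start with EIF, EEF or PABPC, together with ETF1, GSPT1 and GSPT2, and without EIF2S1 and EIF4EBP1. The rule gave 81 genes of the 20046 protein-coding genes. It takes in the initiation, elongation and termination factors and the cytoplasmic poly(A)-binding proteins, and also genes that carry the prefix without being factors, such as the EIF2AK kinases and EEF2K, so that 64 of the 81 encode a factor itself. The data were clusters of YB-1 PAR-CLIP reads from wild-type HEK293T, a line of human embryonic kidney cells. There were 2 replicates, named Rep.A and Rep.B, of a single condition, and no control library. All cells grew with 100 µM 4-thiouridine for 16 h before light of 365 nm (0.15 J/cm2), which crosslinks the modified uridine to bound protein and turns it into a T-to-C change in the reads. RNA was pulled down with antibodies to YB-1 and cut with RNase T1, an enzyme specific for G. Each table lists called clusters, 1382 in Rep.A and 2011 in Rep.B, with a mean coverage in reads per base, called reads below, that was left unscaled for library depth. Its median was 12.1 (Rep.A) and 25 reads (Rep.B) over all clusters.

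Initiation starts when the eIF4F complex, made of the cap-binding protein eIF4E, the scaffold eIF4G and the helicase eIF4A, binds the capped end of an mRNA and meets a small ribosomal subunit loaded with eIF3, eIF1, eIF1A, eIF5 and the eIF2 complex that carries the initiator tRNA. eEF1A then delivers each aminoacyl-tRNA, eEF2 moves the ribosome by a codon, and eRF1 (ETF1) with eRF3 (GSPT1) ends the chain at a stop codon. YB-1 is a cold shock domain protein that packages mRNA in the cytoplasm and is known both to promote and to repress translation. The mRNAs of elongation factors belong to the TOP mRNAs, a class whose translation depends on cell growth signals.

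The sequences below are the sites that carry the result, the exon regions found in both replicates that had the highest coverage and at most 30 bases. They are printed 5′ to 3′ on the RNA strand with T for U, from hg38, and capitals mark CATC and CACC, the 4-base sequences known as YB-1 motifs.
EEF2, coding sequence, chr19:3982842-3982855, minus strand: CATCtcCACCtacg
EEF2, coding sequence, chr19:3977896-3977918, minus strand: CACCggccccaaCATCctCACCg
EEF2, 3′ UTR, chr19:3976226-3976247, minus strand: tccaaactaattttaacaaacg
EEF1G, coding sequence, chr11:62560107-62560132, minus strand: aaccaacaatagcagctccatttctg
EIF4G2, coding sequence, chr11:10799351-10799373, minus strand: ttCATCctctgctccttccaaag
EIF4G2, coding sequence, chr11:10799310-10799332, minus strand: aacaactactactatctttcaag
EIF4G2, coding sequence, chr11:10799213-10799235, minus strand: ctataacagcaacttcccaaaag
EIF4A1, coding sequence, chr17:7578215-7578244, plus strand: tccCACCaacagggaaaactatatccacag
EIF3L, coding sequence, chr22:37875944-37875966, plus strand: ccaaCATCctcctctaCATCcag
EIF1, 3′ UTR, chr17:41691019-41691041, plus strand: ccctcatttaaacagaggtcaag
EIF1, 3′ UTR, chr17:41691454-41691479, plus strand: ttgacaagggaacaaatctcaaactg
EIF5, 3′ UTR, chr14:103341393-103341414, plus strand: aactggctccttactttaaatg

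Of the 81 genes, 15 held a cluster in either replicate (5.56% of all protein-coding genes did). In Rep.A 10 of them held a cluster (3.9% of all protein-coding genes) and in Rep.B all 15 (5.03%). Overlapping clusters of both replicates, sharing at least 1 base on the same strand, were found in 9 genes, EEF1G, EEF2, EIF1, EIF3E, EIF3L, EIF4A1, EIF4G2, EIF4H and EIF5. This is 11.1% of the list, and the share over all protein-coding genes was 3.32%. In 8 of the 9 the overlap lay in an exon (9.88% of the list, and 2.87% of all protein-coding genes). EIF3E held it in an intron alone. Expression is not in the tables, and genes that HEK293T cells do not express count in both shares, so the part of expression in this difference was not tested. The overlapping clusters made up 17 regions, 16 of them in exons.

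The plot of the transcripts shows where the exon clusters lay. EEF2 and EIF4G2 had 4 exon regions in both replicates each, and only SRRM2, TMBIM6 and TUBA1B among the other protein-coding genes of the nuclear chromosomes reached 4. By role, 1 of 4 genes of eIF1 and eIF1A had regions of both replicates. So did 2 of 14 eIF3 subunits, EIF3L in an exon and EIF3E in an intron alone. Such regions were found for 1 of 3 eIF4A helicases, 1 of 3 eIF4G scaffolds and 1 of 2 helicase cofactors. They were also found for 1 of the 3 genes EIF5, EIF5B and EIF6. Among elongation factors they were found for EEF2 and for 1 of 3 genes of the eEF1B exchange complex. The 3 release factor genes, the 4 genes of eIF4E, the 5 of eIF2B, the 3 eIF2 genes EIF2S2, EIF2S3 and EIF2S3B, and EIF2A and EIF2D had no cluster in either replicate. Neither did the 4 EIF2AK kinases, the 7 kinases and methyltransferases of elongation factors or 3 genes of eIF4E-binding proteins, EIF4EBP2, EIF4EBP3 and EIF4ENIF1. EIF4EBP1, a further eIF4E-binding protein, was left out of the list and is not covered here. Of the eIF3 genes, EIF3A, EIF3B, EIF3C, EIF3CL, EIF3D, EIF3F, EIF3G, EIF3I, EIF3J, EIF3K and EIF3M had none, and of eIF4F, EIF4A2, EIF4G1, EIF4G3 and EIF4E had none. EIF4A3, the helicase of the exon junction complex, had none either. In all, 66 genes had none within their own span. For EIF4B and EIF4EBP2 among them, transcript sequence lay in a cluster at a copy elsewhere. The tables list called clusters alone and hold slightly fewer of them than the study's methods name, and the rest were not analysed here, so whether YB-1 is absent from these mRNAs was not tested.

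**Figure D1:**
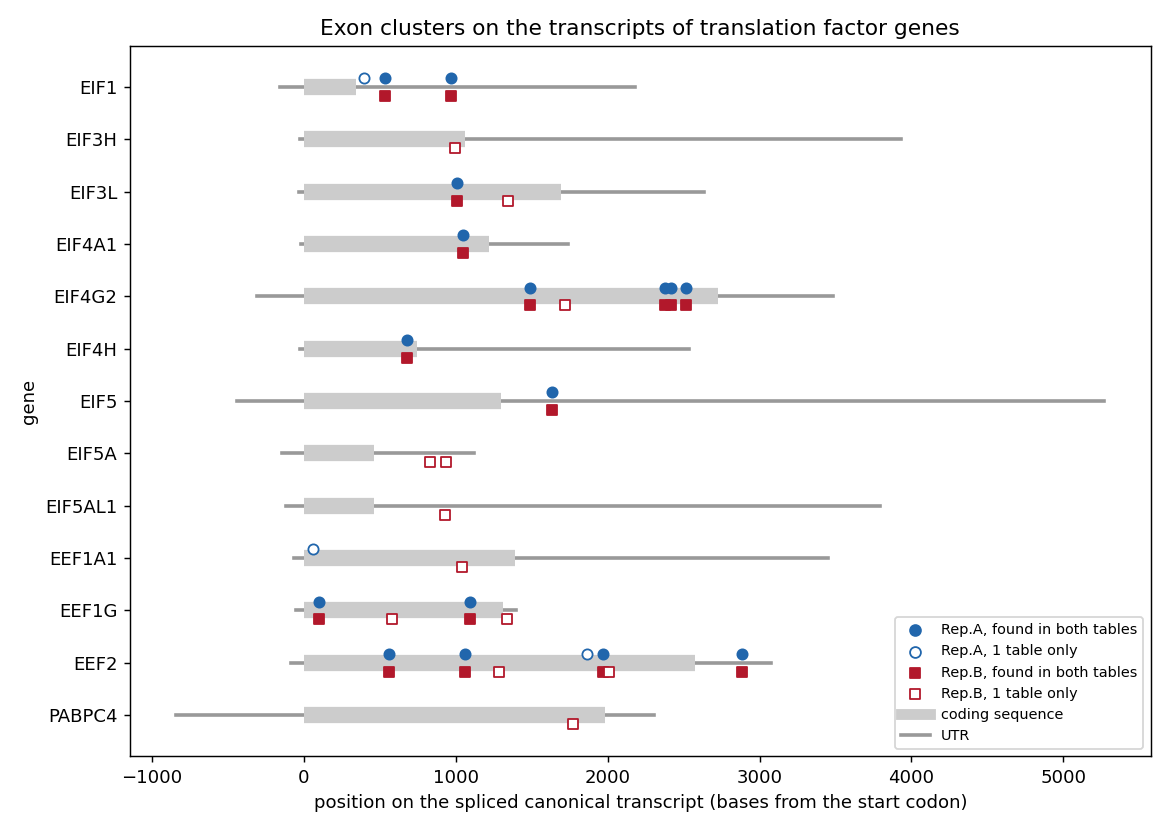
Exon clusters of 13 genes on the spliced Ensembl canonical transcript, in bases from the start codon (x axis), with the coding sequence as a wide grey bar and the UTRs as a thin line. Circles are Rep.A and squares Rep.B, filled where the other replicate has an overlapping cluster; EEF2 and EIF4G2 each have 4 filled positions in both replicates.

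EEF2 (ENSG00000167658, chr19:3976056-3985463, minus strand) encodes eEF2, the factor that moves the ribosome along the mRNA. All of its 5 Rep.A and 6 Rep.B clusters lay in exons. The region with the highest coverage was the 14-base site in exon 4, at base 564 of the 2577 bases of its coding sequence, with 55.6 reads in Rep.A and 145 reads in Rep.B. These values were above those of 90.6% of all Rep.A clusters and 93.0% of all Rep.B clusters. At 14 bases this sequence has 7 exact copies in the genome, its own place included. The authors kept only reads longer than this, so the copies do not give the places where a read fits. How surely the reads identify EEF2 at this site was not tested.

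A second site of EEF2, in exon 8 from base 1060, had 35.8 reads in Rep.A over 25 bases and 49.1 in Rep.B over 36 bases. The site in exon 12, from base 1968, had 22.7 (Rep.A) and 39.0 reads (Rep.B). The site in the 3′ UTR starts 307 bases past the stop codon in Rep.A, with 32.5 reads there and 98.8 in Rep.B, and 2 of its T bases carried a transition in each replicate. Rep.B exceeded Rep.A at all 4 sites. The 3 sites other than the short one each have a sequence found once in the genome. CATC and CACC are both present in the 3 coding sites and neither is present in the 3′ UTR site.

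EEF2 also held clusters in 1 replicate alone. In Rep.A there was 1 at base 1866 of the coding sequence, with 24.5 reads. In Rep.B there were 1 at base 1287, with 87.6 reads, and 1 at base 2011, with 35.9 reads. The Rep.B cluster at base 1287 had higher coverage than 89.1% of the clusters of its table and still had no counterpart in Rep.A.

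EIF4G2 (ENSG00000110321, chr11:10797050-10808940, minus strand) encodes a relative of eIF4G, also called DAP5, that lacks the part of eIF4G which binds eIF4E. All of its clusters, 4 in Rep.A and 5 in Rep.B, lay in the coding sequence of 2724 bases, and each sequence occurs once in the genome. Exon 20 held 3 regions within 161 bases, starting at bases 2376, 2417 and 2514. The first had 9.78 (Rep.A) and 35.3 reads (Rep.B). The second had 33.3 and 64.9 reads. The third had 64.0 and 121 reads, the highest values of the gene in both replicates. The order of the 3 neighbouring sites was the same in both replicates.

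The fourth region of EIF4G2, in exon 15 from base 1491, spans 43 bases, with 25.4 (Rep.A) and 63.8 reads (Rep.B). A cluster at base 1718 was listed in Rep.B alone, with 18.8 reads. EIF4G1 and EIF4G3, the other genes of this scaffold family, had no cluster.

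EIF1 (ENSG00000173812, chr17:41688885-41692668, plus strand) encodes eIF1, which guards the choice of the start codon. Its clusters all lay in the 3′ UTR of the canonical transcript. The region 193 bases past the stop codon had 13.9 (Rep.A) and 42.6 reads (Rep.B), and that 628 bases past it had 28.2 and 55.4. A further cluster, 54 bases past the stop codon, had 20.7 reads in Rep.A and none was called in Rep.B. In the transcript with the longest coding sequence the region with 28.2 reads lies outside the exons, so it is placed in the 3′ UTR by the canonical transcript alone.

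EIF5 (ENSG00000100664, chr14:103333544-103345025, plus strand) encodes eIF5, which makes eIF2 hydrolyse its GTP once the start codon is found. It had 1 region, 341 bases past the stop codon in the 3′ UTR, with 26.0 (Rep.A) and 74.0 reads (Rep.B). Start and end were the same in both replicates, each with a transition at 1 of 8 T bases, and the sequence occurs once in the genome.

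EIF4A1 (ENSG00000161960, chr17:7572824-7579006, plus strand) encodes the helicase of eIF4F. Its region in exon 10, from base 1047 of 1221, had 27.0 (Rep.A) and 36 reads (Rep.B). The same bases are also annotated to the read-through gene SENP3-EIF4A1. EIF4H (ENSG00000106682, chr7:74174231-74197122, plus strand) encodes a cofactor that stimulates this helicase. Its region in exon 7, from base 682 of 747, had 7 (Rep.A) and 21 reads (Rep.B), the lowest coverage of all 16 exon regions in Rep.B.

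EIF3L (ENSG00000100129, chr22:37848868-37889407, plus strand) encodes a subunit of eIF3. Its coding region in exon 10 had 13.8 (Rep.A) and 35.6 reads (Rep.B). A second coding cluster, of 35 bases in exon 11, had 28.6 reads in Rep.B alone. EIF3H, another eIF3 subunit (chr8:116642130-116766925, minus strand), had 1 coding cluster in Rep.B with 36 reads and none in Rep.A.

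EIF3E (chr8:108162787-108443496, minus strand), also a subunit of eIF3, had 2 clusters in Rep.A and 1 in Rep.B, all in introns. The region of both replicates had 837 reads in Rep.A over 11 bases and 2246 in Rep.B over 10 bases, above 99.1% and 99.4% of the clusters of their tables. No exon cluster of any of these genes came near this coverage, the highest being 64.0 in Rep.A and 145 in Rep.B. The 11-base sequence has 14 exact copies in the genome and the 10-base sequence 444, whereas the 21-base window around it has 1. The authors kept only reads longer than these clusters, so the copy numbers do not give the places where a read fits. Which transcript the reads came from was not tested. The other Rep.A cluster in an intron of EIF3E had 4 reads.

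EEF1G (ENSG00000254772, chr11:62559596-62574086, minus strand) encodes the gamma subunit of the complex that recharges eEF1A with GTP. Its region in exon 2 had 6.57 (Rep.A) and 27.4 reads (Rep.B). That in exon 9, from base 1092 of 1314, had 18.2 and 48.7 reads. Rep.B alone also had a coding cluster of 10.1 reads at base 581 and a cluster of 22.3 reads that starts 24 bases past the stop codon. The same bases are also annotated to the overlapping gene ENSG00000255508. EEF1B2 and EEF1D, which encode the other subunits of the complex, had no cluster.

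The remaining genes had clusters that no cluster of the other replicate overlapped. EEF1A1 (ENSG00000156508, chr6:73489308-73525587, minus strand), which encodes eEF1A, had 1 cluster in Rep.A at base 61 of its coding sequence, with 2.95 reads, and 1 in Rep.B at base 1042, with 52.4 reads. EIF5A, which encodes a factor that helps ribosomes through difficult stretches, had 2 clusters in Rep.B, with 8 and 3 reads, and its intronless relative EIF5AL1 had 1, with 6 reads. PABPC4, a cytoplasmic poly(A)-binding protein, had 1 coding cluster of 11.0 reads in Rep.B. PABPC1, the main protein of that family, had 1 cluster of 7 reads in Rep.B, in an intron.

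**Figure D2:**
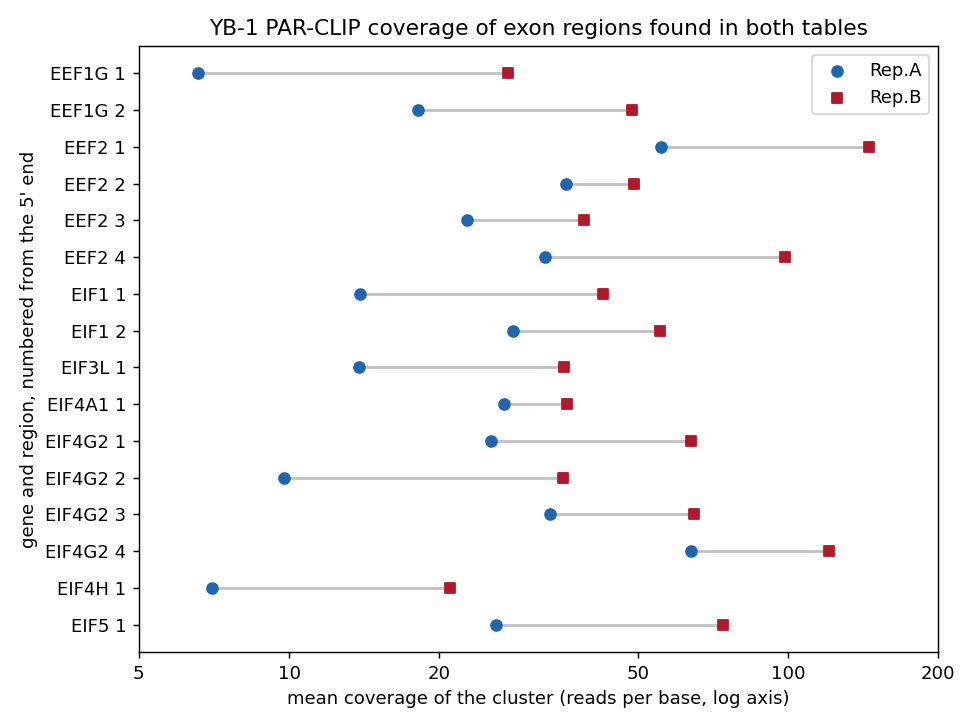
Mean coverage in reads per base (log axis) of the 16 exon regions found in both replicates, with Rep.A as circles and Rep.B as squares joined by a line for each region. Rep.B is above Rep.A in every region, and the values run from 6.57 to 64.0 reads in Rep.A and from 21 to 145 in Rep.B.

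Since coverage is not scaled for depth, the ratio of Rep.B to Rep.A in each region was set beside the ratio in all 627 exon regions of nuclear protein-coding genes, which had a median of 2.67 and quartiles of 2.11 and 3.30. The 16 regions had a median ratio of 2.60, from 1.33 in EIF4A1 to 4.17 in the exon 2 region of EEF1G. Of the 16, 8 lay between the quartiles of all regions, 6 lay below them and 2 above. For the 9 regions with a sequence found once in the genome the median was lower, 1.97 (log2 0.98), which is below the lower quartile of 2.11. The 627 regions were not limited to such sequences. The start and the end were identical in both replicates for 13 of the 16, and the share over all 627 regions was not counted.

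**Figure D3:**
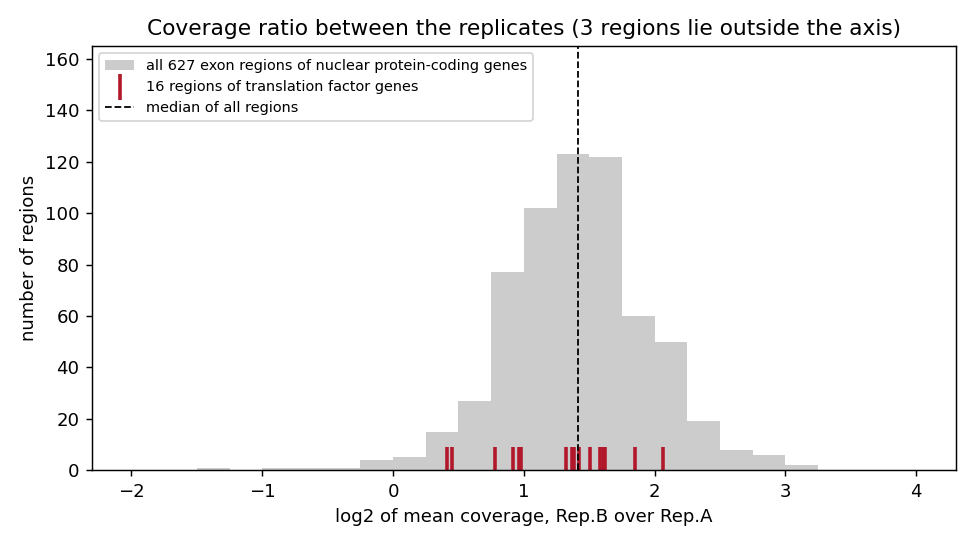
Histogram of the log2 ratio of mean coverage, Rep.B over Rep.A (x axis), for the 627 exon regions of nuclear protein-coding genes, with the 16 regions of translation factor genes as red ticks and the median of all regions as a dashed line. The ticks lie on both sides of the median, and 3 of the 627 regions lie outside the axis.

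In Rep.A, 16 of 19 exon clusters of these genes were found in Rep.B (84.2%, 95% Wilson interval 62.4 to 94.5%), and 85.3% of all 735 exon clusters of nuclear protein-coding genes were. In Rep.B, 16 of 28 were found in Rep.A (57.1%, 39.1 to 73.5%), and 66.6% of all 942. The intervals cover counting error only. The median coverage of the exon clusters was 24.5 (Rep.A) and 36 reads (Rep.B), and over all exon clusters of nuclear protein-coding genes it was 13.0 and 32.9. The 12 Rep.B clusters without a counterpart had a median of 20.5 reads and the 16 with one had 48.9. In Rep.B, 10 of the 28 exon clusters had a transition at 2 or more of their T bases (35.7%, 20.7 to 54.2%), and 17% of all 942 did. In Rep.A this was 4 of 19 (21.1%, 8.51 to 43.3%), and 15.9% of all 735. Among the 10 of Rep.B, the EIF5A and EIF5AL1 clusters of 3 and 6 reads hold the same 20-base sequence. Clusters of 1 transcript share their source and are not independent, so the intervals are no test against the backgrounds.

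The coding sequence held 12 of the 16 exon regions (75%), and 57.7% of all 627 exon regions lay there. The canonical transcript also gave 12 of 16, with the other 4 in the 3′ UTR. None lay in a 5′ UTR. The transcript with the longest coding sequence put 3 of the 16 in the 3′ UTR, and 35.9% of all 627 lay there. The 4 regions in the 3′ UTR of canonical transcripts belong to EEF2, EIF1 and EIF5. The last base was G, after which RNase T1 cuts, in all 16 regions and in 96.7% of all 627.

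CATC was searched on the RNA strand of each region and found in 5 of the 16 (31.25%), and in 45.5% of all 627 exon regions. CACC was found in 6 (37.5%), and in 43.1% of all 627. At least 1 of these motifs was found in 8 of the 16 (50.0%), and in 70.7% of all 627. The 5 regions with CATC were 3 in EEF2, 1 in EIF3L and 1 in EIF4G2. None of the 4 regions in the 3′ UTR and neither the EEF1G site in exon 9 nor the 2 EIF4G2 sites nearest the stop codon held either motif, as their printed sequences show, and the EIF4H region held neither. The match is a description of letters and not of binding.

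Many of these genes have processed pseudogenes, copies of their mRNA set back into the genome, and the aligner reported 1 position for a read, also where several match equally well. Of the 16 exon regions, 9 had sequences of at least 18 bases found once in the genome, and 73.8% of all 627 were of this kind. Those 9 belong to EEF2, EIF4G2, EIF1 and EIF5. The regions of EEF1G, EIF3L, EIF4A1 and EIF4H and 1 region of EIF1 each had at least 1 further exact copy, and the remaining region is the 14-base site of EEF2. Outside the 81 genes, 18 Rep.A clusters and 32 Rep.B clusters had a sequence that lies whole in a transcript of a member, and 44 of these 50 lay in an exon of a pseudogene. The cluster sequences were therefore also placed on the members' transcripts, and coverage was summed over the gene and its copies.

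EIF4A1 had Rep.B clusters at each of its copies. Its 30-base sequence, printed above, has 5 exact copies, the gene and 4 pseudogenes. Besides the 27.0 and 36 reads in the gene, the pseudogenes together had 24.0 (Rep.A) and 97.0 reads (Rep.B). Of the latter, EIF4A1P7 alone had 47.0, and it had no Rep.A cluster. The sum was 51 (Rep.A) and 133 reads (Rep.B). Its ratio of 2.61 was close to the median ratio of 2.67 of all regions, against 1.33 for the gene alone. This did not hold at every site with copies. Among those with clusters of both replicates, summed ratios ran from 2.28 (EEF1A1, base 61) to 8.76 (EIF3L, exon 11). The sums hold called clusters alone, so these ratios also depend on which copies had a called cluster in each replicate. At the EIF3L site the gene itself had one in Rep.B alone, with 28.6 reads. A second site, at base 1165 of the EIF4A1 coding sequence, was listed only at EIF4A1P6, with 6 (Rep.A) and 14.0 reads (Rep.B).

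EEF1A1 had the most clusters at copies. Its sequence was found in clusters of 10 EEF1A1 pseudogenes, 4 of Rep.A and 15 of Rep.B. With the gene they fell on 4 sites of the EEF1A1 transcript, all in its coding sequence. Of these sites, 2 had clusters of both replicates. That from base 1034 had 50.3 reads in Rep.A, all at the pseudogenes EEF1A1P5 and EEF1A1P12, and 254 in Rep.B, of which 52.4 were in the gene. That from base 61 had 8.95 (Rep.A) and 20.4 reads (Rep.B), and its sequence has 16 copies. The site from base 702 had 144 reads in Rep.B, and no cluster was called there in Rep.A. EEF1A1 was thus without a shared cluster by position in the gene, while its transcript sequence was shared by both replicates.

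PABPC4 was alike. Its 21-base sequence has 3 copies. It was listed in both replicates at 2 pseudogenes, ENSG00000237176 on chromosome 12 and ENSG00000258895 on chromosome 15. These pseudogenes had a sum of 12 (Rep.A) and 29.0 reads (Rep.B). In the gene a cluster was called in Rep.B alone, with 11.0 reads. EEF1G shared 3 coding sites with the pseudogene ENSG00000283041 on chromosome 7. At the exon 9 site the pseudogene had 15.9 (Rep.A) and 46.2 reads (Rep.B). At the exon 2 site it had 10.4 and 33.1 reads, more than the gene in both replicates. The bases of this copy are also annotated to an exon of the protein-coding gene CHCHD3. At base 581, where the gene had a Rep.B cluster alone, the pseudogene had a Rep.A cluster of 2.77 reads, so this site was in both replicates on the transcript. EIF3L shared its exon 10 site with EIF3LP3, which had 5.70 and 16.2 reads, and the exon 11 site was listed at EIF3LP3 in both replicates, with 6 and 24.0 reads. Counted on transcripts with all copies, exon sites of both replicates were found for 10 genes, which are the 8 with a shared exon cluster, EEF1A1 and PABPC4. This is 12.3% of the list, and by the same rule the share over all protein-coding genes was 3.19%. Whether the reads came from the genes, from transcribed pseudogenes or from CHCHD3 cannot be told apart from identical sequence.

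**Figure D4:**
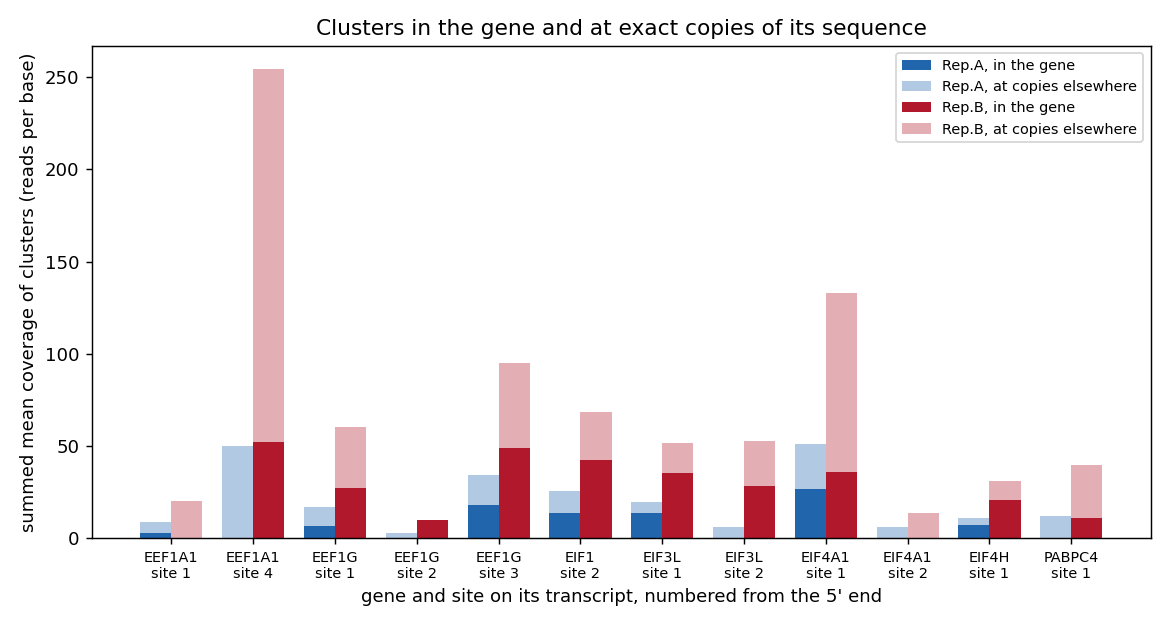
Summed mean coverage in reads per base (y axis) of clusters in the gene (dark) and at exact copies of its sequence elsewhere in the genome (light), for the 12 transcript sites with such copies that have clusters of both replicates, with Rep.A in blue and Rep.B in red. At EEF1A1 site 4, Rep.A has no cluster in the gene and 50.3 reads at copies.

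For comparison, 40 other genes that act on or with these factors were looked up. They were chosen with earlier results of these data known. A cluster in either replicate was found in 7 of the 40 (5.56% of all protein-coding genes had one). PAIP2, BTF3 and SERBP1 had overlapping clusters of both (7.5% of the 40, with 3.32% over all protein-coding genes). SERBP1, which encodes a protein that binds ribosomes at rest, had 2 regions in its 3′ UTR, the higher with 43.0 (Rep.A) and 113 reads (Rep.B). PAIP2, an inhibitor of poly(A)-binding protein, had 1 region in its 5′ UTR with 9.82 and 42.0 reads. BTF3, a subunit of the nascent chain complex at the ribosome exit, had 1 coding region with 4 and 21 reads. RACK1, NACA and DRG1 had a cluster in Rep.B alone, and MKNK2 had one in Rep.A alone.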

How the data were processed

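YB-1 PAR-CLIP clusters of 2 samples of 1 group were used. The authors trimmed reads with cutadapt (version 2.10 in the submitters' processing notes), aligned them to hg38 with bowtie 1.0.0 and called clusters in each replicate with wavClusteR, without pooling. As deposited, mean coverage is a signal (reads per base) that carries no scaling for library size. The deposited numbers of transitions and of T bases are counts, the deposited crosslinking efficiency is their fraction, and the deposited log odds are a score. The deposited sequence of every cluster matched the plus strand of hg38, so those of minus-strand clusters were turned here to the RNA strand, after which the T bases matched the deposited count in all clusters.

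Genes and exons came from GENCODE release 44. Clusters of both tables that share at least 1 base on the same strand were joined into regions, and a region was placed by its longest overlap with the coding sequence or UTRs of the transcript with the longest coding sequence. Bases of the coding sequence are counted from the start codon, the stop codon included. Exact copies were counted on both strands of the reference chromosomes for sequences of 18 to 100 bases, and for the shorter member sequences named. A shorter sequence was not counted as found once. No test was run, since there is 1 condition. Intervals are 95% Wilson intervals. PCR duplicates cannot be told from independent molecules in the tables. Library totals were not used, and relative depth was read from the coverage ratio over all regions. Overlaps and transcript placement were tested on simulated data.

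Every member with a cluster is named, with values for those in both tables and for the 5 highest in 1 table, and printed sequences are the 12 exon regions of at most 30 bases with the highest coverage outside chromosome 8. The members and lists were chosen with earlier results of these data known. Alternatives were a reciprocal overlap of 50%, exons alone, a score at or above the median, a coverage of at least 10, sequences found once, each replicate alone, another transcript, factors alone, 5 added bases and, added after seeing the data, member sequence at any copy. Tools were Python 3.11.15 with numpy 2.4.6, pandas 2.3.3, pysam 0.24.0, statsmodels 0.14.6 and matplotlib 3.10.9.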

Additional observations from a re-analysis of the deposited data

How the results depend on the processing

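Of 21 values recomputed under alternatives, 13 stayed within their limits. The 9 genes with overlapping clusters of both replicates were 4 with clusters at or above the median score (EEF1G, EEF2, EIF1 and EIF3E; 298 of all protein-coding genes), 4 with sequences found once in the genome (EEF2, EIF1, EIF4G2 and EIF5; 475 of all protein-coding genes), and 10 to 15 with 1 replicate left out, where the 15 came from Rep.B alone, without Rep.A. The 12 regions in the coding sequence, of 16, were 6 of 9 with sequences found once, 2 of 4 with the median score, and 14 to 20 with 1 replicate left out, the 20 being clusters of Rep.B, of 28. The 5 regions with CATC were 3 of 9 with sequences found once and 6 to 9 with 1 replicate left out, the 9 again from Rep.B. These counts fall or rise by construction, since fewer or more clusters enter. The median log2 coverage difference, 1.38 over the 17 pairs (SD 0.46), was 0.98 with sequences found once (9 pairs), 1.37 as a mean per gene and 1.38 with the reciprocal overlap. Log odds in place of coverage were not run, since their scale differs. No paired analysis was possible because the series has 1 group. Clusters that were not called are not in the tables, which limits what absence shows.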

Other observations

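Some transcript sequences of EIF4H, EIF4B and EIF4EBP2 were met in clusters outside these genes, at places where the gene itself had no cluster. A 22-base sequence of the EIF4H 3′ UTR, with 2 copies in the genome, had a Rep.B cluster of 94.2 reads on chromosome 7 outside annotated exons and none in EIF4H. EIF4B, a helicase cofactor with no cluster of its own, had its sequence in a Rep.A cluster of 3.96 reads at the pseudogene EIF4BP9, one of 6 copies. A 25-base sequence of EIF4EBP2, of which 13 bases are T, had a Rep.B cluster of 5 reads outside annotated exons. The 20-base sequence shared by EIF5A and EIF5AL1 has 4 copies and had Rep.B clusters of 3 and 6 reads in these genes and one of 4 reads on chromosome 10 outside exons. None of these sequences had a cluster of the other replicate at any copy.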
